A study of Cavia porcellus with 11 samples.

Results

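Cochlin, the small secreted proteins of cochlear fibrocytes, the glycoproteins of the tectorial membrane and a pair of transcription factors of the otic mesenchyme were followed in guinea pig (Cavia porcellus) cochleae. The group held the 10 genes Coch, Otos, Otor, Tecta, Tectb, Otoa, Otog, Otogl, Pou3f4 and Tbx18. They were matched by gene symbol, which uses no measured value, but were chosen with earlier results of these data known. All 10 were found among the 21481 genes of the deposited table. RNA-seq libraries came from cochleae given cisplatin plus STB (3 libraries), cochleae given cisplatin alone (4 libraries) and cochleae without treatment, the control (4 libraries). Cisplatin is a platinum drug that can damage hearing, and the series title names Schisantherin B, while the labels write STB without spelling it out. The sources used here do not give strain, age, sex, dose, route, time after treatment or how many animals went into a library. No library came from cochleae given STB alone. Whether replicates are different animals is not stated in the labels, and each p-value below measures the spread among these libraries, which could be technical.

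The fluid spaces of the cochlea are bordered by connective tissue. Fibrocytes of the spiral ligament and spiral limbus fill this tissue with matrix and help to return potassium to the endolymph, and cochlin is the best known protein they secrete. The tectorial membrane is an acellular gel that lies over the hair cells. It is built from collagens and from glycoproteins such as otogelin and the tectorins, which the mouse makes mainly during development, and it is held to the limbus by otoancorin. In the mouse, the transcription factors Pou3f4 and Tbx18 are needed for the otic mesenchyme to form working fibrocytes.

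The libraries held 15183801 to 17967896 counts after cisplatin plus STB, 15987935 to 17250430 after cisplatin and 14338894 to 18508296 in control. On the second principal component, which carried 17.1% of the variance of log2 CPM, cisplatin replicate 2 lay at one end and control replicate 4 at the other. All 8 hair cell markers and all 5 Schwann cell markers had counts in every library, whereas the summed level of the 5 skeletal muscle markers was 6.63 to 16.5 CPM (counts scaled to library size with TMM factors) over the 11 libraries. The 6 spiral ganglion neuron markers summed to 2380 CPM in control replicate 2 and 2078 CPM in cisplatin plus STB replicate 2, and to 494 to 1374 CPM elsewhere. Control replicate 2 and cisplatin plus STB replicate 2 also had the lowest Coch, at 27153 and 28465 CPM. Cisplatin replicate 4, at the other end of the first principal component, had the highest, at 51393 CPM. The relation of these values was not tested. Of the 7 otic fibrocyte markers in the table, 5 of which are members, all had counts in every library. Their summed level, nearly all of it Coch, was 30868 to 40299 CPM after cisplatin plus STB, 40997 to 53644 CPM after cisplatin and 29501 to 44695 CPM in control. In whole tissue, fewer cells of a type and less RNA per cell cannot be told apart.

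Levels were compared between genes in the FPKM of the authors, which divide by the deposited exonic length. Coch was the gene with the highest FPKM in each of the 11 libraries, with a mean of 17379 FPKM and a range of 13005 to 23122. Otos followed at 935 FPKM on average, rank 33 of all genes, and Otor at 108 FPKM, rank 542. The exonic length given for Otor was 7564 bases and that for Otos 562 bases, so the order of these 2 genes in FPKM is the reverse of that in CPM, where Otor averaged 814 and Otos 523.

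Below them the order was Tbx18 (mean 50.7 FPKM), Otoa (37.8), Otog (21.9), Otogl (13.6) and Pou3f4 (12.6). The ranges of these neighbours over the libraries overlapped. Tbx18 was above Otoa in 10 of 11 libraries, Otog above Otogl in 9 of 11, and Otogl above Pou3f4 in only 6 of 11, so the order of Otogl and Pou3f4 was not settled. Tectb (0.68 FPKM, rank 13519) and Tecta (0.33 FPKM, rank 14460) stood far below, with Pou3f4 18.6 times as high as Tectb in mean FPKM.

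**Figure D1:**
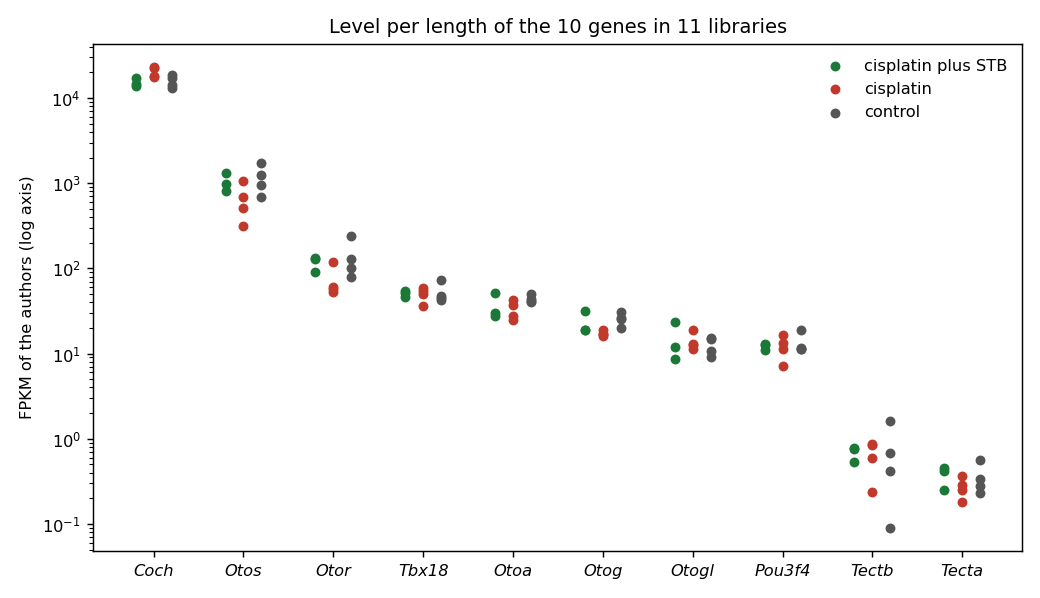
FPKM of the authors (log axis) for each of the 10 genes, 1 point per library, in the order of the mean over 11 libraries, with cisplatin plus STB left, cisplatin in the middle and control right within each gene. Coch lies between 13005 and 23122 FPKM, 7 genes lie between 7.1 and 1717, and Tectb and Tecta stay at or below 1.63.

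Coch encodes cochlin, a secreted protein with LCCL and von Willebrand factor A domains that is mutated in an inherited form of deafness with vestibular loss. In the deposited table the gene spans bases 27533503 to 27546826 of its scaffold (plus strand). It took 3.15%, 3.00% and 3.74% of the counts of the libraries after cisplatin plus STB. After cisplatin it took 3.94%, 3.75%, 4.97% and 4.88%, against 3.73%, 2.79%, 3.09% and 4.04% in control. All 4 cisplatin libraries lay above all 3 libraries of cisplatin plus STB, by the narrow margin of 3.75% against 3.74% at the nearest, and they overlapped with control through control replicate 4.

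The mean share of Coch was 4.39% ± 0.63 after cisplatin and 3.41% ± 0.57 in control (SD, n = 4 each). The difference of 0.97 percentage points had p = 0.114 in a two-sided exact permutation test, in which 4 against 4 libraries can reach 0.0286 at best. After cisplatin plus STB the share was 3.30% ± 0.39 (SD, n = 3), against 4.39% after cisplatin. This difference of -1.09 points had p = 0.0571 in the exact permutation test, the smallest value that 3 against 4 libraries can give. Against control the difference was -0.12 points (exact permutation p = 0.857), and adjusted over these 3 tests the permutation p-values were 0.171, 0.171 and 0.857.

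In the fit of all genes Coch averaged 45242 ± 6801 CPM after cisplatin and 33753 ± 6209 CPM in control (SD, n = 4 each). Its log2 fold change for cisplatin against control was 0.42 (SE 0.19, unadjusted p = 0.0487), and after Benjamini-Hochberg adjustment over 15384 genes its p in edgeR's quasi-likelihood test was 0.512, short of the threshold of 0.05. After cisplatin plus STB it averaged 32333 ± 4763 CPM (SD, n = 3). Against cisplatin the log2 fold change was -0.48 (SE 0.21, adjusted p = 0.531 in edgeR), and against control it was -0.06 (SE 0.21, adjusted p = 1.00). The cisplatin libraries enter the first and the second of these comparisons, so the opposite signs are not independent of each other.

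The 9 other genes together took far less of a library than Coch did. Their summed share was 0.261%, 0.216% and 0.194% after cisplatin plus STB. It was 0.200%, 0.123%, 0.162% and 0.152% after cisplatin, against 0.297%, 0.209%, 0.212% and 0.283% in control. The 3 lowest summed shares were in cisplatin replicates 2, 3 and 4, while cisplatin replicate 1 lay among the other libraries. Otor and Otos had the largest mean shares of the 9 in each group, so this order need not hold for the remaining genes. Otor averaged 0.0885% after cisplatin plus STB, 0.0544% after cisplatin and 0.105% in control. Otos averaged 0.0584%, 0.0361% and 0.0645% in the same order.

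**Figure D2:**
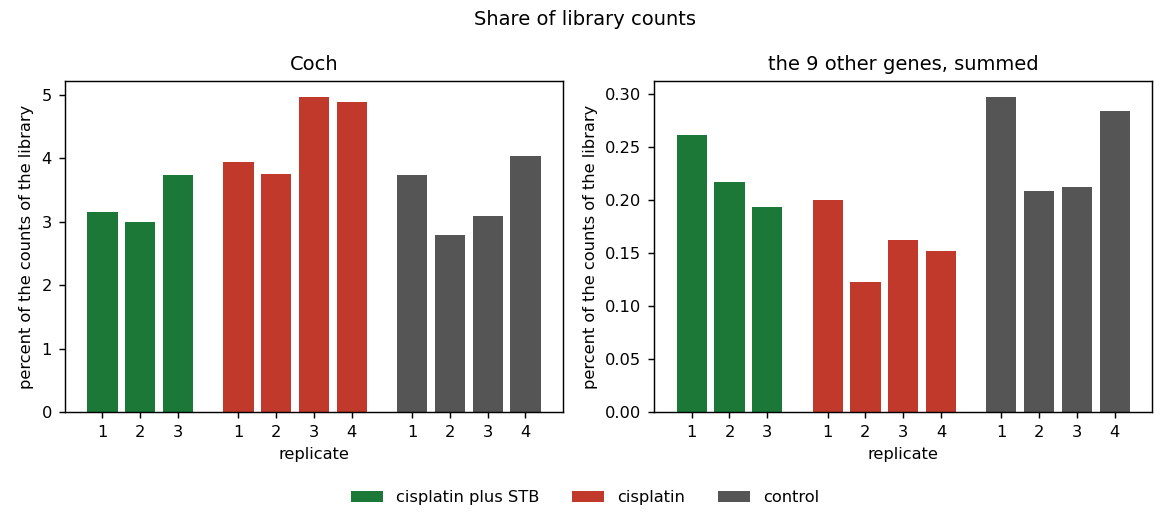
Percent of the counts of each library taken by Coch (left) and by the other 9 genes summed (right), 1 bar per library, numbered by replicate and coloured by group. Coch takes 3.75% to 4.97% after cisplatin and 2.79% to 4.04% in the other libraries, while the sum of the other 9 is 0.123% to 0.200% after cisplatin and 0.194% to 0.297% elsewhere. Otor and Otos have the largest mean shares in that sum.

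Otos encodes otospiralin, a small protein of spiral ligament and limbus fibrocytes. It was at 727, 527 and 461 CPM after cisplatin plus STB. After cisplatin it was at 382, 185, 609 and 306 CPM, against 378, 515, 688 and 976 CPM in control. The groups overlapped in each comparison, with the lowest value in cisplatin replicate 2 and the highest in control replicate 4, the libraries at the ends of the second principal component.

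Set against control, Otos had a log2 fold change of -0.79 after cisplatin (SE 0.36; adjusted p = 0.516 in edgeR). Without control replicate 4 it was -0.51. In cochleae given cisplatin plus STB it was 0.62 relative to cisplatin (SE 0.39, adjusted p = 0.682 in edgeR), or 0.39 without cisplatin replicate 2, 0.41 without cisplatin plus STB replicate 1 and 0.96 without cisplatin replicate 3.

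Otor encodes otoraplin, a secreted protein of the family of melanoma inhibitory activity that is made in the cochlea. Its levels were 970, 937 and 685 CPM after cisplatin plus STB. After cisplatin they were 886, 476, 405 and 462 CPM, against 1806, 750, 581 and 999.8 CPM in control. Cisplatin replicates 2, 3 and 4 lay below every other library, while cisplatin replicate 1 lay among the rest.

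The log2 fold change of Otor was -0.89 for cisplatin against control (SE 0.35, unadjusted p = 0.0250, edgeR adjusted p = 0.481). It was -0.47 without control replicate 1, which held the highest level, and -1.20 without cisplatin replicate 1. Cisplatin plus STB gave 0.63 relative to cisplatin (SE 0.37, adjusted p = 0.662 in edgeR) and -0.26 relative to control (SE 0.37, adjusted p = 1.00). Within libraries, Coch had 31.8, 30.4 and 55.0 counts per count of Otor after cisplatin plus STB. After cisplatin it had 44.4, 82.7, 125 and 111, against 20.4, 36.2, 52.0 and 40.8 in control. Cisplatin replicates 2, 3 and 4 lay above all other libraries in this ratio.

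Among the tectorial membrane genes, Otog was the only member whose cisplatin and control libraries did not overlap. It encodes otogelin, a large glycoprotein of the acellular membranes of the inner ear, and spans bases 96916343 to 96991280 of its scaffold (minus strand). Its levels were 289, 169 and 180 CPM after cisplatin plus STB. After cisplatin they were 158, 186, 153 and 165 CPM, against 242, 232, 279 and 187 CPM in control.

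The nearest libraries were cisplatin replicate 2 at 186 CPM and control replicate 4 at 187 CPM. In either direction, cisplatin and control libraries failed to overlap for 6.06% of all genes tested. The log2 fold change of Otog was -0.51 (SE 0.18, unadjusted p = 0.0133), a fold of 0.70 with a 95% interval of 0.54 to 0.92, and the adjusted p in edgeR was 0.454. Relative to cisplatin, the log2 fold change after cisplatin plus STB was 0.36 (SE 0.19, adjusted p = 0.615 in edgeR). It was 0.08 without cisplatin plus STB replicate 1, the highest of all 11 libraries for this gene.

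Otogl encodes the related otogelin-like protein. It ranged from 73.6 to 213 CPM after cisplatin plus STB, from 101 to 177 CPM after cisplatin and from 81.5 to 134 CPM in control. Otogl was highest in replicate 3 and lowest in replicate 2 of the same treated group, so cisplatin plus STB spanned the values of the other groups. Its log2 fold changes were 0.23 for cisplatin against control (SE 0.31) and 0.01 for cisplatin plus STB against cisplatin (SE 0.33), and the second was -0.54 without cisplatin plus STB replicate 3. The first was 0.0427 without cisplatin replicate 4 and 0.12 without control replicate 1.

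Otoa encodes otoancorin, which anchors the tectorial membrane to the interdental cells of the limbus. It ranged from 107 to 202 CPM after cisplatin plus STB, from 103 to 181 CPM after cisplatin and from 156 to 204 CPM in control, with overlap in all 3 comparisons. Its log2 fold change for cisplatin against control was -0.34 (SE 0.22; adjusted p = 0.615 in edgeR), and for cisplatin plus STB against control -0.28 (SE 0.23, adjusted p = 1.00). The first was -0.22 without cisplatin replicate 3. The second was -0.62 without cisplatin plus STB replicate 1 (adjusted p = 1.00 in edgeR), -0.18 without replicate 3 and -0.11 without replicate 2 of that group.

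Tecta and Tectb encode alpha- and beta-tectorin, the main non-collagenous proteins of the tectorial membrane. Tecta had 27, 54 and 54 counts after cisplatin plus STB, 42, 34, 22 and 31 after cisplatin, and 24, 38, 30 and 74 in control. Tectb had 24, 40 and 39 counts after cisplatin plus STB, 40, 41, 30 and 12 after cisplatin, and 4, 19, 72 and 37 in control. Both passed the filter on low counts, yet a library held at most 74 of these counts.

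The values of Tectb in control ran over a wider range than counting error. Before TMM scaling, the 4 counts of control replicate 1 correspond to 0.28 CPM (95% exact Clopper-Pearson interval 0.08 to 0.71) and the 72 counts of control replicate 3 to 4.79 CPM (3.75 to 6.03), intervals that cover counting error only. The 5 vestibular and otoconial markers, 4 of them with counts in every library and Otop1 below 1 CPM on average, summed to 1001 to 2063 CPM after cisplatin plus STB, 934 to 2380 CPM after cisplatin and 558 to 1832 CPM in control. Their sums in control replicates 1 to 4 were 1257, 1634, 1832 and 558 CPM. These sums also take in Otol1, Ocm and Spp1. Oc90 alone was at 52.5, 50.7, 289 and 40.2 CPM in the same control libraries. It was at 36.3, 314, 42.6 and 47.9 CPM after cisplatin and at 40.1, 113 and 126 CPM after cisplatin plus STB. The part of these markers in the Tectb level was not tested.

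For cisplatin against control the log2 fold change was -0.33 for Tecta (SE 0.36) and -0.09 for Tectb (SE 0.63, fold 0.94 with a 95% interval of 0.36 to 2.42). The biological coefficient of variation fitted for Tectb was 0.608, higher than that of 95.7% of genes tested. Without control replicate 3 the log2 fold change of Tectb was 0.70. By contrast Ceacam16, a secreted protein that binds alpha-tectorin in the mouse tectorial membrane, was at 726 FPKM on average. In FPKM it was 1024 to 4646 times as high as Tecta within a library.

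**Figure D3:**
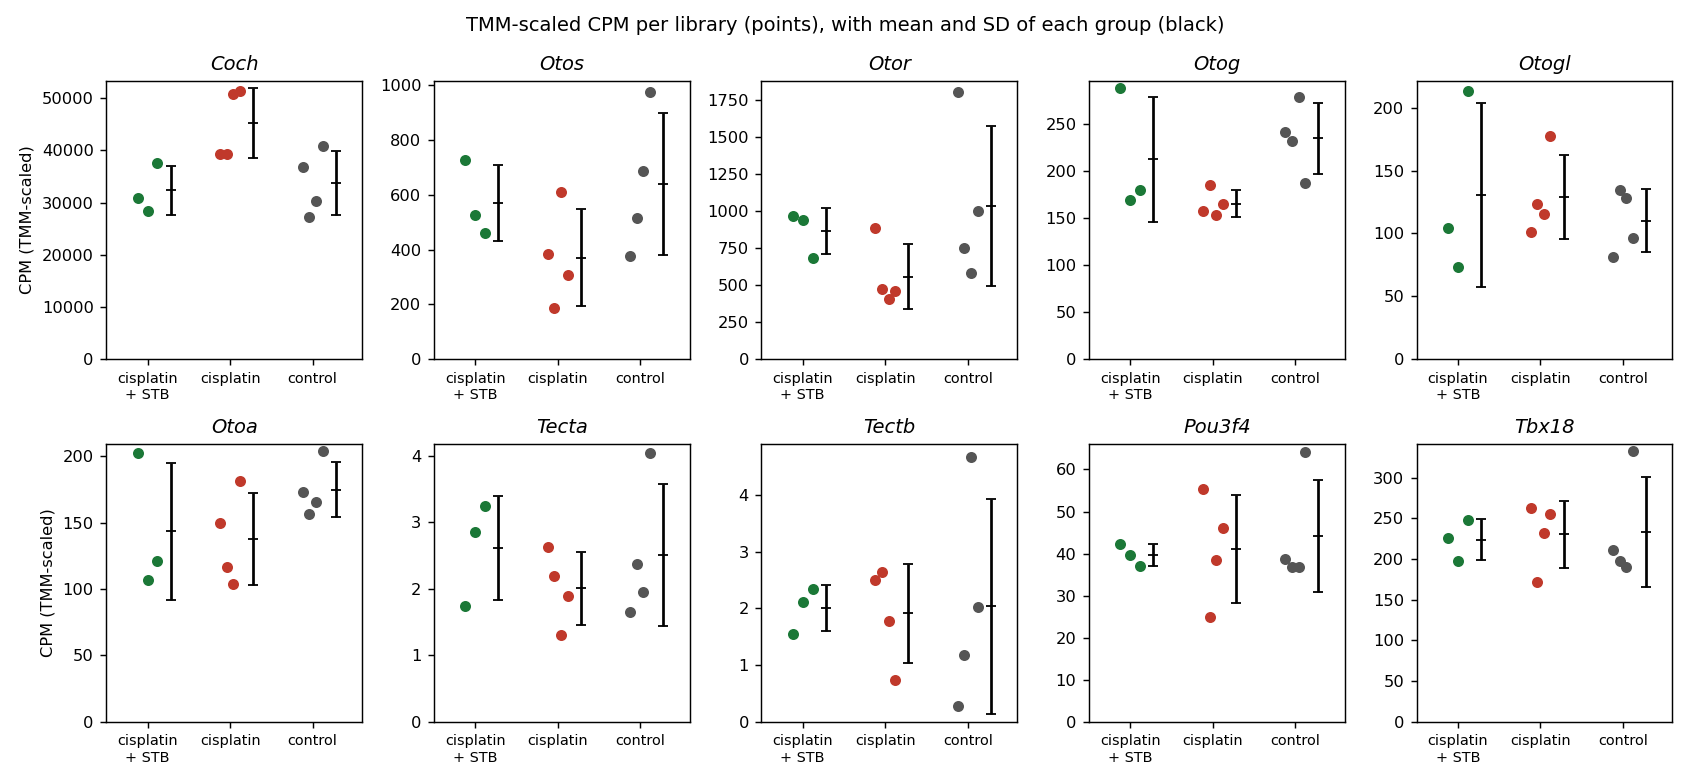
TMM-scaled CPM of each of the 10 genes, 1 point per library, with cisplatin plus STB left, cisplatin in the middle and control right, and the mean ± SD of each group in black. Otog has its 4 cisplatin libraries (153 to 186 CPM) just below its 4 control libraries (187 to 279 CPM), while for the other 9 genes these groups overlap.

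Pou3f4, a POU homeobox factor of the otic mesenchyme whose loss causes X-linked deafness in humans, was at 42.4, 39.6 and 37.2 CPM after cisplatin plus STB. It was at 55.3, 24.8, 38.5 and 46.1 CPM after cisplatin, against 38.6, 36.9, 36.8 and 64.2 CPM in control. Control replicate 4 was the highest library and cisplatin replicate 2 the lowest. Tbx18, a T-box factor required for fibrocyte differentiation in the mouse, was at 226, 198 and 248 CPM after cisplatin plus STB. It was at 263, 171, 232 and 255 CPM after cisplatin, against 212, 198, 190 and 334 CPM in control. The highest and the lowest library were the same as for Pou3f4.

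Neither factor differed between groups beyond its spread. For cisplatin against control Pou3f4 had a log2 fold change of -0.10 (SE 0.24; adjusted p = 0.894 in edgeR) and Tbx18 of -0.02 (SE 0.19, adjusted p = 0.982). The 95% interval of the fold was 0.65 to 1.33 for Pou3f4 and 0.74 to 1.32 for Tbx18. Without control replicate 4 the log2 fold changes were 0.14 for Pou3f4 and 0.20 for Tbx18. Relative to cisplatin, Tbx18 stood at -0.04 (SE 0.21) and Pou3f4 at -0.05 (SE 0.26) after cisplatin plus STB.

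These 2 factors varied together across libraries. Over the 11 libraries log2 CPM of Pou3f4 and Tbx18 had Pearson r = 0.89 (permutation p = 0.00037, adjusted p = 0.0166 over the 45 pairs of members) and Spearman rho = 0.81 (permutation p = 0.0040, adjusted p = 0.180). Without the 2 libraries farthest from the median of Pou3f4, r was 0.69 (permutation p = 0.0267), and between deviations from the group means it was 0.90. The points share their tissue, and no labelled batch was available to split them by.

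None of the other 44 pairs passed the adjustment for Pearson's r, and no pair passed for rho. At an unadjusted permutation p under 0.05 there were 3 pairs, the others being Coch with Otog (r = -0.64, and -0.36 between deviations from the group means) and Otor with Otogl (r = -0.61). Otos and Pou3f4 had r = 0.57, which became -0.49 without the 2 libraries farthest from the median of Otos, so that relation rests on those libraries.

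**Figure D4:**
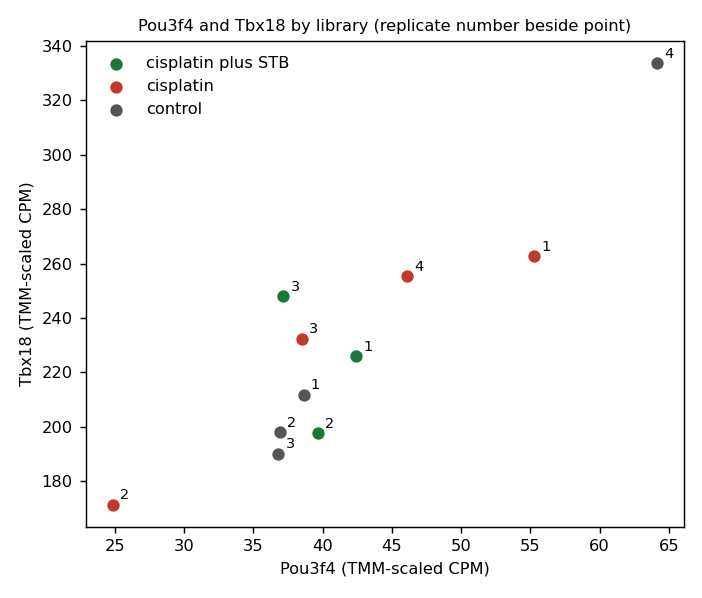
TMM-scaled CPM of Tbx18 (vertical axis) against that of Pou3f4 (horizontal axis) in the 11 libraries, coloured by group, with the replicate number beside each point. Control replicate 4 (64.2 and 334 CPM for Pou3f4 and Tbx18) and cisplatin replicate 2 (24.8 and 171 CPM) lie at opposite ends of the same rising trend.

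Counted over the group, 0 of 10 members were called by edgeR for cisplatin against control. DESeq2 and limma-voom with quality weights also called 0 of 10. All 10 had passed the filter on low counts. Coch, Otor and Otog, 3 of 10, had an unadjusted edgeR p under 0.05, beside 9.71% of all genes tested. The median log2 fold change was -0.21 over the members and -0.01 over all genes, with 8 members negative and 2, Coch and Otogl, positive. Over all genes edgeR called 0 for this comparison, 0% of those tested, where 1494 had an unadjusted p under 0.05 and DESeq2 called 33 and limma-voom 3.

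For cisplatin plus STB against cisplatin 0 of 10 members were called by edgeR, DESeq2 or limma-voom, where edgeR called 0.0195% of all genes. Over all genes DESeq2 called 101 and limma-voom 235. At an unadjusted p under 0.05 there was 1 of 10, Coch, beside 9.03% of all genes. Coch was also the 1 member whose libraries did not overlap, as was the case for 7.54% of genes. The median was 0.06 over the members and 0.00 over all genes, with 7 positive and 3 negative.

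For cisplatin plus STB against control 0 of 10 members were called by these 3 tools, and 0 of 10 had an unadjusted edgeR p under 0.05 beside 1.07% of all genes. EdgeR called 0% of all genes in this comparison. The libraries of every member overlapped, whereas they did not for 2.41% of genes. The member with the smallest p was Otoa (unadjusted p = 0.246). In the test of any difference among the 3 groups, Otog had the smallest p of the members (unadjusted p = 0.0381, edgeR adjusted p = 0.657), where 7.25% of all genes had an unadjusted p under 0.05 and 0.0065% were called.

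**Figure D5:**
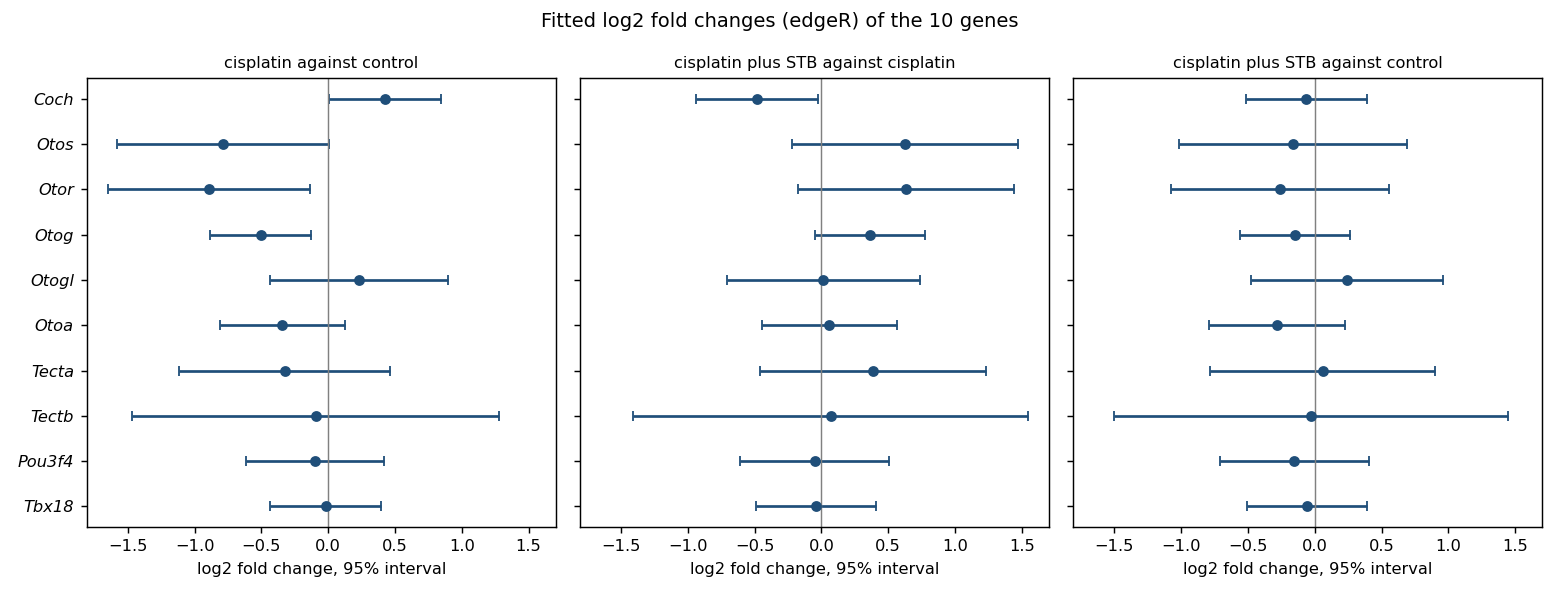
Fitted log2 fold changes (edgeR) of the 10 genes with 95% intervals, 1 panel per comparison. In the left panel the intervals of Coch (0.42), Otor (-0.89) and Otog (-0.51) do not reach 0, in the middle panel that of Coch (-0.48) does not, and in the right panel every interval includes 0.

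The other genes of the tectorial membrane, the otoconial membrane and the stereocilia matrix, a list of 16 of which 12 were tested, had 0 called by edgeR in any comparison. At an unadjusted p under 0.05 edgeR gave 2 for cisplatin against control, 1 for cisplatin plus STB against cisplatin and 0 for cisplatin plus STB against control, beside 9.71%, 9.03% and 1.07% of all genes. DESeq2 also called 0, and limma-voom called 1 for cisplatin plus STB against cisplatin, where it called 235 over all genes. Ceacam16 was at 1900, 845 and 773 CPM after cisplatin plus STB. After cisplatin it was at 1021, 1070, 863 and 771 CPM, against 1318, 1421, 1578 and 1707 CPM in control. As for Otog, all cisplatin libraries lay below all control libraries (log2 fold change -0.69, SE 0.25, unadjusted p = 0.0169, edgeR adjusted p = 0.462), where libraries did not overlap for 6.06% of all genes.

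Sparc, a matrix protein that binds collagen and calcium, averaged 3766 ± 581 CPM after cisplatin and 2637 ± 817 CPM in control (SD, n = 4 each), a fitted difference of 0.51 on the log2 scale (SE 0.21, adjusted p = 0.488 in edgeR). It averaged 2266 ± 309 CPM after cisplatin plus STB (SD, n = 3), with a log2 fold change of -0.73 against cisplatin (SE 0.23, unadjusted p = 0.00732, adjusted p = 0.397 in edgeR). Limma-voom called this difference (adjusted p = 0.0475), 1 of its 235 calls in this comparison, and DESeq2 did not. Col2a1, the fibrillar collagen chain of the tectorial membrane and of cartilage, stood at -0.34 (SE 0.17) for cisplatin against control, and Col9a3, a chain of collagen IX, at -0.21 (SE 0.35). For cisplatin against control 5 of the 12 were positive and 7 negative, with a median of -0.06 beside -0.01 over all genes. The split was 4 positive and 8 negative for cisplatin plus STB against cisplatin (median -0.13 beside 0.00) and 2 positive and 10 negative for cisplatin plus STB against control (median -0.16 beside -0.00).

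Of 20 further genes of the otic mesenchyme and its fibrocytes, 18 were tested and 0 were called by edgeR, DESeq2 or limma-voom in any comparison. At an unadjusted p under 0.05 edgeR gave 2 for cisplatin against control, 1 for cisplatin plus STB against cisplatin and 0 for cisplatin plus STB against control, beside the same shares of all genes (9.71%, 9.03% and 1.07%). Cav1, which encodes the caveolar coat protein caveolin, averaged 71.9 ± 7.05 CPM after cisplatin and 55.2 ± 2.46 CPM in control (SD, n = 4 each). Its log2 fold change was 0.38 (SE 0.12, unadjusted p = 0.00737, edgeR adjusted p = 0.448). Emilin2, an elastin-associated glycoprotein of the basilar membrane, averaged 843 ± 454 CPM after cisplatin and 1528 ± 339 CPM in control, a fitted difference of -0.86 on the log2 scale (SE 0.32, adjusted p = 0.462 in edgeR). Slc4a11, a membrane transporter of fibrocytes, stood at -0.28 (SE 0.21) and Foxc1, a forkhead factor of the mesenchyme, at 0.14 (SE 0.14).

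All 12 genes of a list of fibrocyte matrix proteins were tested. EdgeR called 0. Its unadjusted p was under 0.05 for 0 in cisplatin against control (9.71% of all genes), for 2 in cisplatin plus STB against cisplatin (9.03%) and for 2 in cisplatin plus STB against control (1.07%). Fmod, the small proteoglycan fibromodulin, averaged 188 ± 40.1 CPM after cisplatin plus STB (SD, n = 3) and 289 ± 25.1 CPM after cisplatin (SD, n = 4), a fitted difference of -0.62 on the log2 scale (SE 0.16, unadjusted p = 0.00203, adjusted p = 0.349 in edgeR). All 3 libraries of cisplatin plus STB, at most 215 CPM, lay below all 4 of cisplatin, at least 271 CPM, and libraries did not overlap for 7.54% of all genes. DESeq2 (adjusted p = 0.0295) and limma-voom (adjusted p = 0.0202) called this difference. Over all genes they called 101 and 235 in this comparison. Fmod averaged 259 ± 32.5 CPM in control (SD, n = 4). Cisplatin plus STB against control gave -0.46 (SE 0.16, unadjusted p = 0.0132 in edgeR, not called). Its libraries lay below all 4 control libraries, at least 220 CPM, and libraries did not overlap for 2.41% of all genes. Cisplatin against control gave only 0.16 (SE 0.15). Vtn, vitronectin, stood at -1.16 (SE 0.51) for cisplatin plus STB against cisplatin and -1.51 (SE 0.51) against control, at a mean of only 0.68 FPKM. For cisplatin plus STB against cisplatin, Postn, periostin, was at 1.42 (SE 0.77) and Cilp, an intermediate layer protein of cartilage, at 0.92 (SE 0.62). Their means were also low, at 0.88 FPKM for Postn and 0.11 FPKM for Cilp.

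The genes with the pattern most like that of a member were the highest among 13232 genes by Pearson correlation of log2 CPM over the 11 libraries, a choice of maxima that carries no test. For Coch they were Pnrc2 (r = 0.96), a nuclear receptor coactivator, Itgb1 (0.94), the integrin beta-1 chain, Rnf7 (0.94), Foxo1 (0.94) and Rbm15 (0.94). For Otor the nearest was Wnt16 (0.96), a secreted Wnt ligand, followed by Ube2q2 (0.93) and Izumo1r (0.90).

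Wnt16 was at 17.9, 22.7 and 15.7 CPM after cisplatin plus STB. After cisplatin it was at 22.8, 11.8, 8.85 and 8.29 CPM, against 37.6, 15.9, 11.7 and 19.6 CPM in control. Its highest library, control replicate 1, was also the highest for Otor. Otoa was most like Spmip7 (0.89), Ccdc13 (0.88) and Gjb6 (0.88), the connexin of cochlear supporting cells and fibrocytes.

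For Otos the nearest genes were Nwd1 (0.92), Trdmt1 (0.91) and Gad1 (0.90). The highest correlations were lower for the sparsely counted tectorins, with Cdh18 (0.88) first for Tecta and Znf639 (0.86) first for Tectb.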

How the data were processed

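RNA-seq of cochleae gave 11 libraries in 3 groups taken from the sample titles. Per the submitters' processing notes, cutadapt 1.9.1, HISAT2 2.2.1 and HTSeq 0.6.1 were used, with no role stated. Per the labels' protocols, libraries keep the strand. Whether counting used it, and the genome build, is not given in the sources used here. Either poly(A) selection or depletion of ribosomal RNA may have been used, per the labels' protocols. The deposited counts are raw whole numbers per gene, and the deposited FPKM of the authors equal those counts over exonic length and the column total. FPKM served only to compare levels between genes.

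The main test was that of edgeR 4.0.16 (R 4.3.3). Its filterByExpr by group kept 15384 of 21481 genes, library sizes were scaled by TMM, and 1 quasi-likelihood model with the groups as coefficients was fitted to all 11 libraries. P-values were adjusted over all genes tested by the Benjamini-Hochberg method, with calls at an adjusted p under 0.05. SE is the log2 fold change over the square root of F. Alternatives used DESeq2 1.42.0, limma 3.58.1, other scalings, filters and blocks, and leaving out each library. The test was checked on simulated counts. Permutation tests used scipy 1.17.1, with 100000 resamples for correlations. Patterns used log2 CPM with a prior count of 2 among genes with a mean of at least 1 CPM and no LOC symbol. Named genes are all members, for each of 3 lists the 4 genes with the smallest p, and the genes with the most similar pattern. The members and lists were chosen with earlier results of these data known. No member overlaps another gene in the table. No 2 libraries agreed within counting noise.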

Additional observations from a re-analysis of the deposited data

Results flagged for a closer look

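In groups of 4 libraries, 3 values lay far from the others by Dixon's criterion among 20 sets of 4 (10 genes in 2 groups), where chance flags about 1 in 20. Pou3f4 was at 64.2 CPM in control replicate 4, and the other control libraries were at 36.8 to 38.6 CPM. Tbx18 was at 334 CPM in the same library, and the other control libraries were at 190 to 212 CPM. Otor was at 886 CPM in cisplatin replicate 1, and the other cisplatin libraries were at 405 to 476 CPM. Control replicate 4 also held the highest Coch, Otos, Otoa and Tecta of the control group.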

How the results depend on the processing

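None of the 10 members was called in any of the 20 alternative fits of each comparison, 11 of which left out 1 library. The lowest adjusted p of a member was 0.0623, for Otog in limma-voom with quality weights (log2 fold change 0.68 for cisplatin plus STB against cisplatin). With 1 library left out, 2 to 3 members had an unadjusted p under 0.05 for cisplatin against control and 0 to 2 for each of the other comparisons. Over all genes (15384 tested in the main fit), the same fits gave 1056 to 2202 for cisplatin against control. They gave 801 to 1938 for cisplatin plus STB against cisplatin and 142 to 381 for cisplatin plus STB against control. With all libraries and the same cutoff, DESeq2 gave 4 members and limma-voom 2 for cisplatin against control, beside 1672 and 2648 of all genes. For cisplatin plus STB against cisplatin they gave 1 and 4 members, beside 1532 and 3311. For cisplatin plus STB against control both gave 0, beside 200 and 1169. For cisplatin against control, where edgeR called 0 genes, the count was 1 with no filter on low counts, 33 by DESeq2 and 3 by limma-voom. For cisplatin plus STB against cisplatin, where edgeR called 3, it was 101 by DESeq2, 235 by limma-voom, 0 with a replicate block and 0 when the control libraries were left out of the fit. For any group difference it was 1, or 2 with no filter. With 1 library left out these counts ran from 0 to 7, from 0 to 23 and from 0 to 10, and from 0 to 2 for cisplatin plus STB against control. The cause was not tested.

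The difference in Coch share between cisplatin plus STB and control was 0.0902 points with a replicate block (exact sign-flip permutation p = 0.75) and ran from -0.34 to 0.0902 points with 1 library left out.

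Replicate numbers were not taken as pairs in the main fit. Of 10 same-numbered pairs, 3 had deviations correlated over 0.1 (-0.31 to 0.36), and the 30 other pairs ran from -0.48 to 0.55. Of 11 libraries, 2 correlated best with their own number. Deviations from the means of such small groups cannot decide whether the libraries were paired. Log2 fold changes whose sign turned are given next. With the replicate block they were Tectb 0.10 and Tbx18 0.0016 for cisplatin against control. For cisplatin plus STB against cisplatin they were Tectb -0.10, Pou3f4 0.12 and Tbx18 0.0873. Between cisplatin plus STB and control they were Coch 0.0202, Otos 0.0083, Tectb 0.0048, Pou3f4 0.0184 and Tbx18 0.0889. Under limma-voom they were Pou3f4 0.0323 and Tbx18 0.17 for cisplatin against control, and Otogl -0.18 and Pou3f4 0.0279 for cisplatin plus STB against cisplatin. Still under limma-voom, cisplatin plus STB against control gave Otos 0.14, Otor 0.22, Tecta -0.11, Otoa 0.0590, Otog 0.0313, Otogl -0.11, Pou3f4 0.0602 and Tbx18 0.11.

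With 1 library left out, the values that turned ran, for cisplatin against control, from -0.47 to 0.0068 for Tecta, -0.45 to 0.70 for Tectb, -0.27 to 0.14 for Pou3f4 and -0.11 to 0.20 for Tbx18. Between cisplatin plus STB and cisplatin they ran from -0.21 to 0.25 for Tectb, -0.27 to 0.23 for Otoa, -0.54 to 0.30 for Otogl, -0.24 to 0.11 for Pou3f4 and -0.17 to 0.0404 for Tbx18. Between cisplatin plus STB and control they ran from -0.19 to 0.0426 for Coch, -0.37 to 0.12 for Otos, -0.46 to 0.15 for Otor, -0.12 to 0.39 for Tecta, -0.39 to 0.77 for Tectb, -0.31 to 0.53 for Otogl, -0.23 to 0.0854 for Pou3f4 and -0.15 to 0.16 for Tbx18. No value whose sign turned had an unadjusted p under 0.05 in either fit. The cause was not tested. Tecta and Tectb had at most 74 counts in a library, and the spread of Tectb among control libraries exceeded counting error.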
